A study of Mus musculus with 24 samples.

Results

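OCT4 (gene Pou5f1, ENSMUSG00000024406) and SOX2 (gene Sox2, ENSMUSG00000074637) were each knocked down in mouse embryonic stem cells (ESCs) that carried a binding site for the pair, and methylation around that site was followed CpG by CpG. The libraries described here are the 3 that allow the single-factor knockdowns to be compared, out of 24 samples in the series. They are the cells given a non-targeting siRNA, the cells given siOCT4 a + b, and the cells given siSOX2 a + b. The CpGs were those upstream of the motif with reads in all 3 libraries, which were 18 of the 23 CpGs outside the motif. The remaining 5 lie downstream, where the non-targeting library had 0 reads, so downstream only the knockdowns could be compared with each other.

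OCT4 and SOX2 are transcription factors that hold ESCs in the pluripotent state, and they bind DNA side by side at a composite motif that joins an octamer site to a SOX site. Both are known for binding sites in closed chromatin. DNA methylation at CpGs is copied to the new strand at replication and can be lost by enzymatic oxidation or by failure of that copying, so a protein bound at a site can leave its surroundings less methylated than the DNA beyond.

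The motif in its intact form (WT) sat in FR1, a bacterial DNA fragment with no function of its own in mouse cells. FR1 had been methylated in vitro by the CpG methyltransferase SssI (+SssI) before it was placed, by recombinase-mediated cassette exchange, at the β-globin locus of TC-1 ESCs. The exchange site lies at the embryonic globin gene Hbb-y (chromosome 7, 103851749 to 103853216, minus strand, GRCm38). All siRNA libraries came from a line isolated out of the transfected pool. The cells received 25 pM siRNA and were collected 72 h later. The strain was labelled C57BL/6 X 129S5 for the non-targeting library and C57BL/6 X 129/sv for both knockdowns, although the study describes a single line, and a strain difference and the siRNA cannot be told apart. The count columns of 8 tables of single lines and siRNA libraries carry 1 shared heading, so each table was assigned by its sample record alone, and no 2 siRNA tables held equal counts at any upstream CpG. Expression of OCT4 and SOX2 in these cells was not analysed here. The study describes that lowering either factor also lowered the other, so neither library is a loss of 1 factor alone. It also gives a lower efficiency for the SOX2 knockdown, so similar changes in methylation do not measure similar contributions of the factors. Allowing for that efficiency, the study proposes a more prominent role for SOX2. Depth at the upstream CpGs was 1524 to 1543 deduplicated reads with the non-targeting siRNA, 2466 to 2474 with siOCT4 and 2844 to 2857 with siSOX2.

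Methylation was higher with both knockdowns along most of the upstream side, and by nearly the same amount. The mean over the 18 upstream CpGs was 24.3% with the non-targeting siRNA (95% Wilson interval 22.2 to 26.5%), 39.4% with siOCT4 (37.5 to 41.3%) and 40.4% with siSOX2 (38.6 to 42.2%). The intervals cover counting error at the median read number only, since there was 1 library per treatment. The mean change (Δmet, knockdown minus non-targeting) was 15.1 percentage points for siOCT4 (95% Newcombe interval 12.2 to 17.9) and 16.2 points for siSOX2 (13.3 to 18.9), a 1.62-fold and a 1.67-fold higher level. The study reported a larger fold increase for its knockdowns, but relative to cells without siRNA. Its reference therefore differs from the non-targeting library used here, and the fold values are not like for like. The mean difference between the knockdowns was −1.05 points, with an interval from −3.68 to 1.59 that includes 0 and, by counting error alone, no difference above 4 points. Intervals of means treat the mean as the share of a single CpG at the median read number. They would be narrower if CpGs on the same read varied separately, so the inclusion of 0 rests on this treatment and does not show equal means.

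A CpG was called when a two-sided Fisher's exact test on its methylated and unmethylated reads gave a Benjamini-Hochberg adjusted p below 0.05 over the 54 upstream tests and the difference reached 10 points. These tests compare reads of 2 libraries and carry no replicate error. With siOCT4, methylation rose at 13 of 18 CpGs (72.2%) and fell at 0 (0%). With siSOX2 it also rose at 13 of 18 (72.2%) and fell at 0 (0%). By adjusted p alone, siOCT4 was higher than the control at 16 CpGs (88.9%) and lower at 1 (5.56%), 94.4% in all, and siSOX2 was higher at 16 (88.9%) and lower at 0 (0%). The comparisons share the control library, so chance error in the control enters both.

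**Figure D1:**
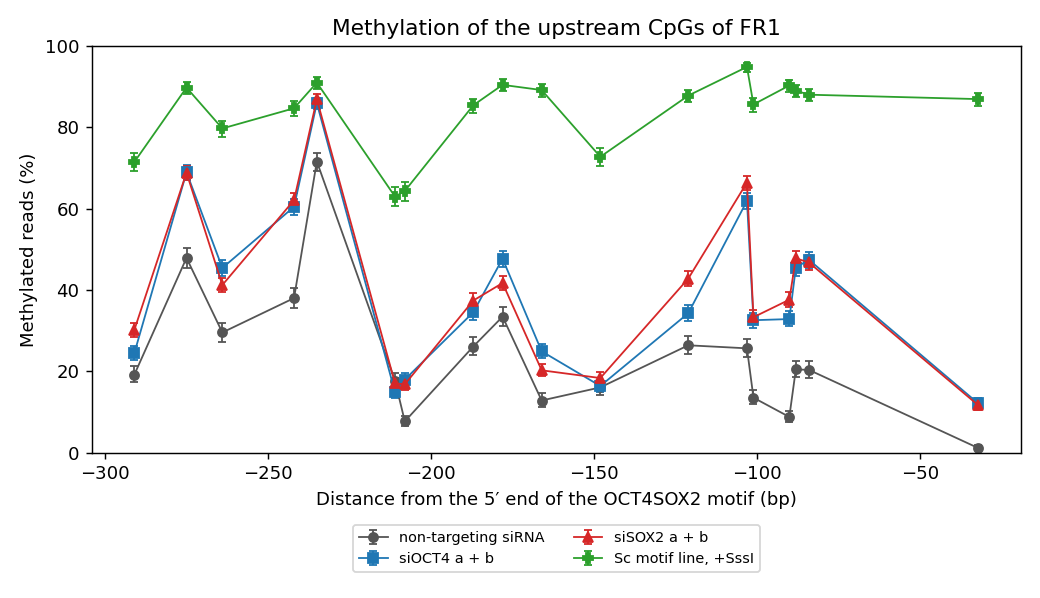
Methylated reads (%, with 95% Wilson intervals) at each upstream CpG against its distance from the 5′ end of the motif (bp), for the 3 siRNA libraries and for the +SssI line with a scrambled (Sc) motif. Both knockdown profiles run together, above the non-targeting profile at most CpGs and below the Sc line at all 18.

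The longest stretch of rises lay next to the motif. It ran from −103 to −32 bp with siOCT4 (72 bp, 6 CpGs) and from −121 to −32 bp with siSOX2 (90 bp, 7 CpGs). At −103 bp (positions count from the 5′ end of the motif) methylation was 25.7% in the control, 61.9% with siOCT4 and 66.4% with siSOX2. It was the largest rise in both knockdowns, 36.2 points for siOCT4 (33.3 to 39.1, adjusted p = 1.70e-112, Fisher's exact test) and 40.7 points for siSOX2 (37.9 to 43.5, adjusted p = 2.48e-149). This CpG ranked 8th of 18 by level in the control and 3rd in each knockdown.

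The next 4 CpGs toward the motif followed it. At −101 bp the levels were 13.6%, 32.6% and 33.3% in the control, siOCT4 and siSOX2 libraries. At −90 bp they were 8.82%, 32.9% and 37.6%, and the rise of 28.8 points with siSOX2 (26.5 to 31.0, adjusted p = 1.95e-103, Fisher's exact test) was the second largest in that library. The level there was 3.73 times the control with siOCT4 and 4.27 times with siSOX2. At −88 bp the levels were 20.5%, 45.5% and 47.8%, a rise of 25.04 points with siOCT4 (22.2 to 27.8, adjusted p = 9.96e-60) and of 27.3 points with siSOX2 (24.5 to 30.0, adjusted p = 2.96e-73, Fisher's exact test). At −84 bp they were 20.4%, 47.4% and 46.8%, and the rise of 27.1 points with siOCT4 (24.2 to 29.8, adjusted p = 1.62e-68, Fisher's exact test) was the second largest in that library.

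The CpG closest to the motif, at −32 bp, behaved differently in level. It was the least methylated upstream CpG in all 3 libraries, with 18 of 1542 reads methylated in the control (1.17%), 299 of 2466 with siOCT4 (12.1%) and 332 of 2844 with siSOX2 (11.7%). The rise in points was small, 11.0 and 10.5, yet the ratio to the control was the highest of all upstream CpGs in both knockdowns and reached 10.4 with siOCT4. That ratio rests on the 18 methylated reads of 1 control library. In the OCT4SOX2 WT construct of the +SssI ESC pool, which had no siRNA, 32 of 501 reads were methylated at −32 bp (6.39%). Against this construct the ratios were 1.90 and 1.83, the differences of 5.74 and 5.29 points did not reach 10 points, and the highest ratio in both knockdowns was at −90 bp, 5.71 with siOCT4 and 6.54 with siSOX2.

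CpGs farthest from the motif formed another stretch of rises. At −275 bp the levels were 47.9%, 68.9% and 68.9% in the control, siOCT4 and siSOX2 libraries, and at −242 bp they were 38.0%, 60.5% and 62.1%. At −264 bp they were 29.6%, 45.4% and 41.2%. The CpG at −235 bp was the most methylated in every siRNA library, at 71.6%, 85.9% and 86.9%. At the outermost CpG, −291 bp, the levels were 19.2%, 24.5% and 30.2%. Its change with siOCT4 was one of the 3 smallest, 5.32 points (2.69 to 7.89, adjusted p = 0.000128, Fisher's exact test), below the 10-point limit, whereas with siSOX2 it was called at 11.0 points. Called CpGs therefore ran without a break from −275 to −235 bp (41 bp, 4 CpGs) with siOCT4 and from −291 to −235 bp (57 bp, 5 CpGs) with siSOX2. The siSOX2 stretch held CpGs close to the limit. In a single random thinning of the libraries to 1541 reads, −291 bp (9.79 points) and −264 bp (9.99 points) fell just short of it. The siSOX2 calls then numbered 11.

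Between these stretches lay the CpGs that moved least, at −211 and −148 bp. At −211 bp the levels were 17.7% in the control, 14.9% with siOCT4 and 17.1% with siSOX2. This was the single upstream CpG below the control in either knockdown, by −2.83 points with siOCT4 (−5.23 to −0.49, adjusted p = 0.0254, Fisher's exact test) and −0.63 points with siSOX2 (−3.03 to 1.68, adjusted p = 0.665). Its neighbour 3 bp away, at −208 bp, was at 7.73%, 18.01% and 16.8%, and its rise with siOCT4 was called at 10.3 points, close to the limit. The control had −211 bp 9.97 points above −208 bp, while the difference between these neighbours was −3.14 points with siOCT4 and 0.22 points with siSOX2. The control stood apart here from the other WT-motif libraries too, which had −3.12 points in the pool construct without siRNA, −4.62 points with both siRNA pairs and −3.77 points with siSOX2 b alone. Against the pool construct, −211 bp was higher by 8.91 points with siOCT4 and by 11.1 points with siSOX2.

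At −148 bp the levels were 16.1%, 16.4% and 18.4% in the control, siOCT4 and siSOX2 libraries. The change was 0.34 points with siOCT4 (−2.04 to 2.65, adjusted p = 0.807, Fisher's exact test) and 2.29 points with siSOX2 (−0.07 to 4.57, adjusted p = 0.0775), so a change of 5 points or more was outside both intervals. At −166 bp the levels were 12.9%, 24.9% and 20.3%. The difference there was called with siOCT4 and was one of the 3 smallest with siSOX2, 7.42 points (5.15 to 9.61, adjusted p = 8.37e-10, Fisher's exact test). The levels were 26.1%, 34.5% and 37.4% at −187 bp and 33.5%, 47.7% and 41.7% at −178 bp. At −121 bp, which belonged to the stretch next to the motif with siSOX2 but was not called with siOCT4, they were 26.4%, 34.3% and 42.8%.

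**Figure D2:**
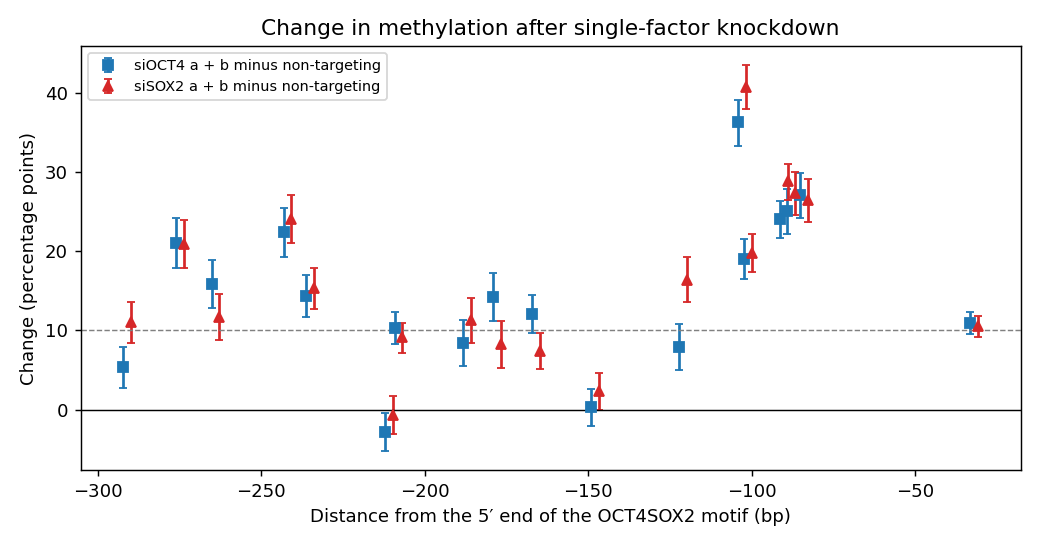
Change in methylation (percentage points, knockdown minus non-targeting, with 95% Newcombe intervals) at each upstream CpG against its distance from the 5′ end of the motif (bp); the symbols are set slightly apart and the dashed line marks 10 points. Both series peak at −103 bp (36.2 and 40.7 points), sit near 0 at −211 and −148 bp, and are above 10 points again at −235 and −242 bp.

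By distance, the largest mean change in points was in the 4 CpGs under 100 bp from the motif. There the mean level was 12.7% in the control, 34.5% with siOCT4 and 36.0% with siSOX2, a Δmet of 21.8 points (19.2 to 24.2) and 23.3 points (20.8 to 25.6). Within this bin the change ran from 11.0 to 27.1 points with siOCT4 and from 10.5 to 28.8 points with siSOX2. It was lowest at −32 bp, the CpG closest to the motif, and below the mean change beyond 200 bp. The other CpGs of the bin lie at −90, −88 and −84 bp, so the change did not grow steadily toward the motif. In the 7 CpGs at 100 to 200 bp Δmet was 14.0 points (11.2 to 16.8) and 15.2 points (12.4 to 17.9). In the 7 CpGs beyond 200 bp it was 12.4 points (9.26 to 15.4) and 13.1 points (10.1 to 16.0). The spread within a bin was wider than the step between the outer bins, from 0.34 to 36.2 points at 100 to 200 bp and from −2.83 to 22.4 points beyond 200 bp for siOCT4. Over the 18 CpGs, which share a library and largely the same reads, Spearman's rho between distance and change was −0.33 for siOCT4 and −0.29 for siSOX2 in points, and −0.61 and −0.59 on the log2 odds ratio scale. The relation to distance was thus closer on the odds scale, on which a rise from a low level counts for more.

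Neither knockdown brought the mean of the upstream CpGs to the level measured with a scrambled motif. In the +SssI line whose motif had been scrambled, upstream methylation averaged 83.6%, from 63.0% at −211 bp to 94.8% at −103 bp (1630 to 1648 reads). The mean gap between the control and this line was 59.3 points, of which the change with siOCT4 was 25.5% and that with siSOX2 27.2%. At all 18 CpGs the Wilson intervals of each knockdown and of the Sc line were separate. The share of the gap was highest at −235 bp, where the control was already high, at 73.9% with siOCT4 and 78.9% with siSOX2, and it left 5.05 and 4.09 points. At −103 bp the share was 52.4% and 58.9%. At −32 bp it was 12.8% and 12.3%, and the knockdown levels stayed 74.8 and 75.3 points below the Sc line. By distance the shares were close to each other, at 28.7%, 21.7% and 27.7% with siOCT4 and 30.7%, 23.5% and 29.3% with siSOX2 from the nearest bin to the farthest. With the Sc construct of the pool as reference the farthest bin had the highest share, 28.7% against 27.7% in the nearest with siOCT4 and 30.3% against 29.6% with siSOX2. Against the non-targeting control, the lead of the nearest bin thus held in points and odds but not as a share of the gap. In odds this bin includes −32 bp (log2 odds ratio 3.51 and 3.45), where the control had 18 methylated reads. The bins were not recomputed against the pool construct without siRNA.

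The order of CpGs by level was similar in all WT-motif libraries compared. Over the 18 CpGs the levels in the siOCT4 and siSOX2 libraries had a Pearson's r of 0.98 and a Spearman's rho of 0.96. Pearson's r was 0.88 for the control against siOCT4, 0.86 against siSOX2 and 0.96 against the pool construct without siRNA. For the control against the Sc line these were 0.34 and 0.33, while for the knockdowns against the Sc line r was 0.61 with siOCT4 and 0.60 with siSOX2. These are descriptions across CpGs of the same fragment, not across replicates.

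The direct comparison asked where the knockdown libraries differed, whatever the efficiency of each knockdown. No upstream CpG was called between the knockdowns (0 of 18, 0%). The largest upstream difference was 8.52 points, below the 10-point limit. No choice of test could therefore have called a CpG, and the 0 calls of a chi-square test with continuity correction add nothing. At an unadjusted p below 0.05 by Fisher's exact test 9 CpGs differed, and the same number passed the adjusted p without the 10-point limit, or 50% of the 18, with siOCT4 higher at 3 (16.7%) and siSOX2 higher at 6 (33.3%). The number was 7 when p was adjusted over these 18 tests alone, without −211 and −187 bp (adjusted p = 0.0597 for each, Fisher's exact test), and 6 after thinning, without −178 bp as well. The intervals had half-widths of 1.75 to 2.69 points, so differences of a few points were within reach of the depth but not of any replicate check.

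The largest upstream difference was at −121 bp, where siSOX2 was higher by 8.52 points (siOCT4 minus siSOX2, −8.52, interval −11.1 to −5.90, adjusted p = 4.27e-10, Fisher's exact test). siSOX2 was also higher at −291 bp (difference −5.69 points), −90 bp (−4.76), −103 bp (−4.50), −187 bp (−2.89) and −211 bp (−2.19). siOCT4 was higher at −178 bp (5.99 points), −166 bp (4.67) and −264 bp (4.19). CpGs with siOCT4 higher lay next to CpGs with siSOX2 higher, as at −187 and −178 bp, and the difference showed no ordering by distance (Spearman's rho 0.05 over 18 CpGs). At −275 bp the knockdowns were 0.09 points apart (−2.41 to 2.58) and at −32 bp 0.45 points apart (−1.29 to 2.21).

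**Figure D3:**
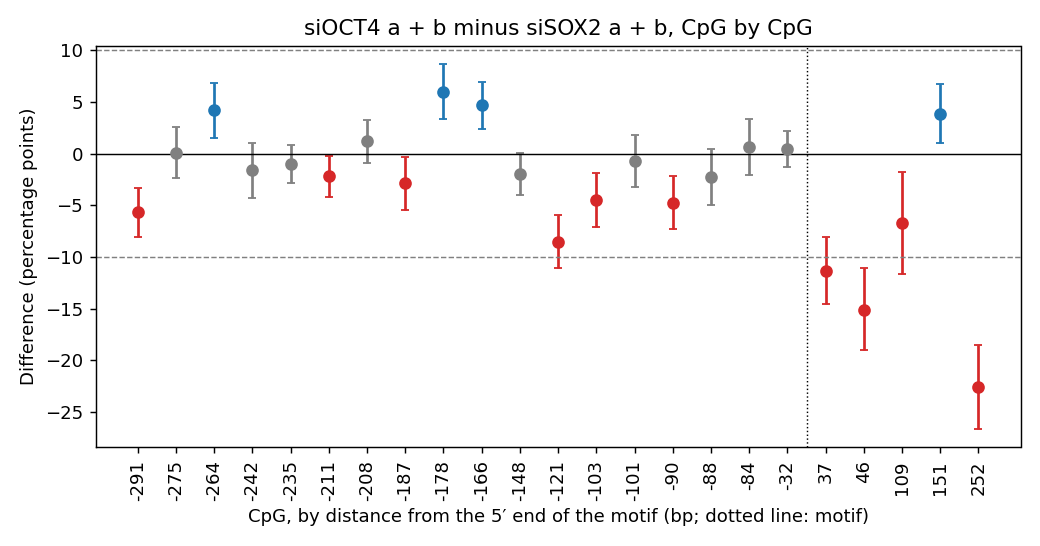
Difference in methylation between the knockdowns (siOCT4 a + b minus siSOX2 a + b, percentage points, with 95% Newcombe intervals) at the 18 upstream and 5 downstream CpGs, in order of position. Blue marks an adjusted p below 0.05 with siOCT4 higher, red the same with siSOX2 higher and grey the rest; all upstream values lie inside the dashed 10-point lines, and those at 37, 46 and 252 bp fall below them.

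On the downstream side the knockdowns separated. Downstream CpGs had 666 to 676 reads with siOCT4 and 836 to 851 with siSOX2, and p-values were adjusted over these 5 CpGs. The mean was 27.1% with siOCT4 (23.9 to 30.6%) and 37.5% with siSOX2 (34.3 to 40.8%), a difference of −10.4 points (−15.0 to −5.68). siSOX2 was called higher at 3 of 5 CpGs (60%) and siOCT4 at 0 (0%). By adjusted p alone all 5 differed, with siOCT4 higher at 1 (20%) and siSOX2 higher at 4 (80%).

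The largest of these differences was at the outermost CpG, 252 bp, with 453 of 675 reads methylated with siOCT4 (67.1%) and 758 of 845 with siSOX2 (89.7%). The difference was −22.6 points (−26.7 to −18.5, adjusted p = 6.73e-27, Fisher's exact test). With a scrambled motif this CpG was at 94.2% in the Sc line, above both knockdowns. In the Sc construct of the +SssI pool it was at 76.1% (71.4 to 80.3%), below siSOX2 and above siOCT4. Close to the motif, at 37 bp, the counts were 48 of 676 (7.10%) and 157 of 851 (18.4%), a difference of −11.3 points (−14.6 to −8.05, adjusted p = 7.55e-11, Fisher's exact test). At 46 bp they were 90 of 676 (13.3%) and 242 of 851 (28.4%), a difference of −15.1 points (−19.0 to −11.1, adjusted p = 1.21e-12, Fisher's exact test). The siOCT4 level was 0.38 and 0.47 times the siSOX2 level at these neighbouring CpGs.

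The other downstream CpGs did not reach the 10-point limit. At 109 bp the levels were 38.0% with siOCT4 and 44.7% with siSOX2, a difference of −6.76 points (−11.7 to −1.78, adjusted p = 0.00886, Fisher's exact test). At 151 bp the direction was opposite, with 9.91% and 6.10%, a difference of 3.81 points (1.06 to 6.69, adjusted p = 0.00832, Fisher's exact test). This CpG was the least methylated downstream with siSOX2 and in the Sc line (57.2%), whereas with siOCT4 37 bp was lower.

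With no reads from the non-targeting library downstream, the change from the control is not known there. The closest measured fragment without siRNA was the pool construct, with 121 to 124 reads and a downstream mean of 9.59% (5.55 to 16.1%). Its levels were 1.63% at 37 bp, 5.65% at 46 bp, 12.4% at 109 bp, 2.48% at 151 bp and 25.8% at 252 bp, all below both knockdowns. Its Wilson intervals overlapped those of siOCT4 at 37 and 46 bp and that of siSOX2 at 151 bp. Upstream, however, this pool construct averaged 17.98%, which was 6.29 points below the non-targeting library (2.15 to 10.1) and below it at 15 of 18 CpGs. The pool construct and the non-targeting library of the isolated line thus differed upstream without a knockdown. The cell population and the siRNA transfection cannot be told apart in this difference. Its part in the downstream values was not tested.

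**Figure D4:**
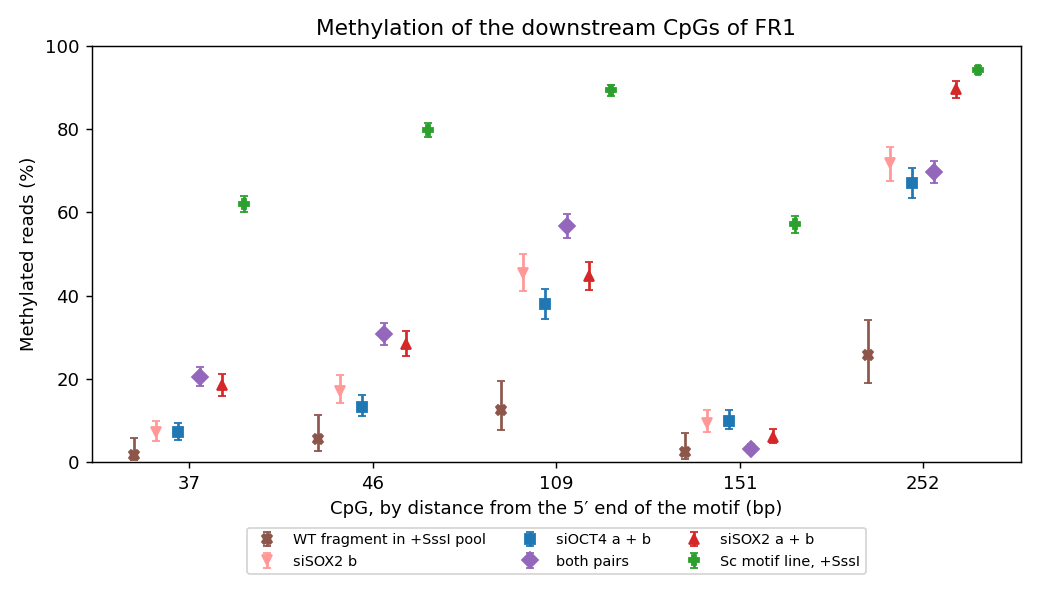
Methylated reads (%, with 95% Wilson intervals) at the 5 downstream CpGs, by distance from the 5′ end of the motif (bp), in the WT fragment of the +SssI pool without siRNA, 4 knockdown libraries and the Sc line. siSOX2 a + b lies above siOCT4 a + b at 37, 46 and 252 bp, and the library with both siRNA pairs lies near siSOX2 a + b at 37 and 46 bp but near siOCT4 a + b at 252 bp.

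The other knockdown libraries give a view of the CpGs where the single-factor libraries differed. In the cells given both siRNA pairs upstream methylation averaged 38.6%, no higher than in either single-factor library, and in those given siSOX2 b alone it averaged 29.4%. Downstream the averages were 36.2% with both pairs and 30.2% with siSOX2 b. Both were above the 27.1% with siOCT4, although siSOX2 b was below siOCT4 upstream. The downstream intervals of siSOX2 b (26.3 to 34.5%) and siOCT4 (23.9 to 30.6%) overlapped. Of the 14 CpGs that differed by adjusted p, the level with both pairs was nearer to siSOX2 a + b at 10 and nearer to siOCT4 a + b at 4, and at 9 it lay outside the range of the single-factor levels. Over all 23 CpGs the split was 13 to 10, and over the 18 upstream CpGs it was even, at 9 each. At −121 bp it was 42.0%, beside 34.3% with siOCT4 and 42.8% with siSOX2. At 37 and 46 bp it was 20.4% and 30.7%, above both, and at 109 bp 56.7%, also above both. At 252 bp it was 69.8%, beside 67.1% with siOCT4 and 89.7% with siSOX2. With siSOX2 b alone the 252 bp CpG was at 71.8%, and the CpGs at 37 and 46 bp were at 7.13% and 17.2%, so the high value of siSOX2 a + b at 252 bp was not seen in the other libraries given an siRNA to SOX2. These levels were set side by side and not tested.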

How the data were processed

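Bisulfite-converted DNA of FR1 was amplified and sequenced by the study in upstream and downstream amplicons. The authors took off adapters, matched each read to its construct by barcode and motif with 0 mismatches, aligned with Bismark (0.20.0 in the submitters' processing notes, with R 3.6.2), filtered on non-CG methylation, deduplicated by UMI and pooled replicates. They deposited, for each CpG, the count of reads and the count of methylated reads, from which all values here were computed. Pooling is described by the study for its libraries in general, and whether these siRNA libraries had replicates to pool is not stated. Since there was 1 library per treatment, p-values compare libraries, and reads are taken as independent. The deposited percentages served only as an alternative. The other tables of the series were not used here, apart from the counts of 2 further siRNA libraries, the Sc line and the +SssI ESC pool (its runs summed). Per-sample columns without a matching sample numbered 0.

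Samples were grouped by their titles. Two-sided Fisher's exact tests with Benjamini-Hochberg adjustment over 54 upstream tests (18 CpGs, 3 comparisons), and separately over 5 downstream CpGs, used Python 3.11.15 with scipy 1.17.1, numpy 2.4.6 and pandas 2.3.3. Figures used matplotlib 3.10.9. The test was checked on simulated reads drawn independently, which holds no spread between cultures and so does not bear on the lack of replicates. Every upstream CpG is given with its levels, and full statistics are given for the 3 largest rises and 3 smallest changes in each knockdown, for CpGs below the control and for CpGs called between the knockdowns; statistics for further CpGs were chosen after their values were seen. The set of libraries, CpGs and tests was chosen with earlier results of these data known. Alternatives varied the difference limit, test, adjustment, depth (thinned to 1541 reads), coverage (at least 100 reads), smoothing (mean reads of CpGs within a 50 bp range), effect scale (odds ratio of 1.5), bins and reference. The pool construct without siRNA as reference, and adjusted p alone within a comparison or after thinning, were added after seeing the data. DSS was not used here.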

Additional observations from a re-analysis of the deposited data

Results flagged for a closer look

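With 1 library per treatment no library could be set against others of its group, and the direct test between the knockdowns gave the differences listed here (siOCT4 minus siSOX2, in points, adjusted p below 0.05). Upstream these were −5.69 at −291 bp, 4.19 at −264 bp, −2.19 at −211 bp, −2.89 at −187 bp, 5.99 at −178 bp, 4.67 at −166 bp, −8.52 at −121 bp, −4.50 at −103 bp and −4.76 at −90 bp. Downstream they were −11.3 at 37 bp, −15.1 at 46 bp, −6.76 at 109 bp, 3.81 at 151 bp and −22.6 at 252 bp. Those at −211 and −187 bp missed the threshold when p was adjusted over this comparison alone, and those at −211, −187 and −178 bp missed it after thinning to equal depth. Each rests on counting error alone, and the spread between cultures given the same siRNA is not known from these counts.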

How the results depend on the processing

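No paired analysis was possible because each treatment had 1 library, and for the same reason no library could be left out. Of 60 recomputed counts and means, 50 stayed close to the values given above. Some of these 50 could not have moved, so the number overstates how far stability was tested. The coverage limit removed no upstream CpG, since the lowest depth there in the 3 libraries was 1524 reads. The deposited percentages differed from those computed from the counts by at most 4.96e-09 points. With a limit of 20 points the called CpGs were 6 with siOCT4, 6 with siSOX2 and 1 downstream between the knockdowns. Without a limit on the difference, 9 upstream CpGs differed between the knockdowns in place of 0, and this was 7 with adjustment within the comparison and 6 after thinning (both added after seeing the data). The median over CpGs in place of the mean was 20.4% in the control and 34.4% with siOCT4. Against the pool construct without siRNA (added after seeing the data), the mean change was 21.4 points with siOCT4 and 22.4 with siSOX2. At −211 bp the changes turned to 8.91 and 11.1 points. Calls were lost at −32 bp (5.74 and 5.29 points) and, with siOCT4, at −208 bp (8.94 points). Calls against the pool construct numbered 13 with siOCT4 and 15 with siSOX2. Thinning to equal depth, done as a single random draw, ended the siSOX2 calls at −291 and −264 bp (9.79 and 9.99 points). It also turned siOCT4 at −148 bp to −0.19 points and the difference between knockdowns at −101 bp to 0.32, both values near 0. Smoothing, which mixes each CpG with its neighbours, turned −211 bp to 7.61 points with siOCT4 and 8.82 with siSOX2, and the difference between knockdowns to −0.46 at −275 bp, 0.54 at −242 bp, −1.30 at −208 bp, 1.33 at −187 bp, 1.38 at −148 bp and −2.36 at −84 bp. For the turns against the pool and under thinning the cause was not tested.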
